A study of Mus musculus with 16 samples.

Results

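The 44 genes described here encode the machinery that senses foreign nucleic acids, receives interferon and answers it. They were taken as a list of names: 4 interferon receptor subunits, 4 sensors, 7 transcription factors, 27 effectors and 2 regulators, beside 21755 protein-coding genes in the annotation used, which lists Mx2 as a polymorphic pseudogene and the other 43 as protein-coding. ATAC-Seq, in which a transposase cuts open chromatin, gave a list of peaks for each of 16 libraries of mouse hematopoietic progenitors, and a site was assigned to a gene when it lay within 50 kb of the gene's 5′ end. After peaks of all libraries had been merged into 90376 regions, 411 regions fell near these genes, of which 50 lay within 1 kb of a 5′ end and are called promoter sites.

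All cells came from mouse fetal liver, had been immortalized with HoxB8 under estrogen control and were grown with β-estradiol. All were infected for 3 d with a retrovirus and isolated by FACS as GFP+ cells. The 4 groups, of 4 libraries each, were hi-77+/+ cells with an empty vector (WTEmp in the labels), hi-77-/- cells with an empty vector (KOEmp), hi-77-/- cells with a GATA2 vector (KOWG), and hi-77-/- cells with a 9aa-Ins vector (KO9aa). hi-77-/- cells lack on both alleles the upstream Gata2 enhancer for which they are named, GATA2 is a zinc finger transcription factor of blood progenitors, and 9aa-Ins is a GATA2 variant with 9 amino acids inserted between its zinc fingers. The labels name no separate lines within a genotype, so the deletion and any other difference between the cell lines cannot be told apart, and p-values measure the spread between libraries that may be technical.

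Cells detect viral RNA with cytoplasmic helicases and respond by making interferon, which binds paired receptor subunits on the cell surface. The bound receptor activates STAT proteins, and STAT2 with IRF9 binds a DNA element, the interferon-stimulated response element, in front of effector genes whose products block viral replication. Several of these genes are also active at a low level in unstimulated blood progenitors. The labels mention no interferon treatment.

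The sequences of 6 sites are shown because each carries a pattern described below: the peaks lost and regained within Ifngr2 and gained at Stat2 with GATA2, those present in every hi-77-/- library at Rsad2 and Mx1, and those with 9aa-Ins at Zbp1 and Rsad2. Each reaches 100 bases to either side of the median summit, on the plus strand of GRCm38, and capitals mark every match to a searched motif. The motifs, searched on both strands, were the interferon-stimulated response element (GAAA, any 2 bases, GAAA), the gamma-activated site (TTC, any 3 bases, GAA), GATA words (AGATAA or AGATAG or TGATAA or TGATAG), an ETS word (GGAAGT) and an E-box (CA, any 2 bases, TG) placed 6 to 14 bases before a GATA word. The last of these contains a GATA word, and the others may overlap.
Ifngr2 intron (chr16:91551277-91551477): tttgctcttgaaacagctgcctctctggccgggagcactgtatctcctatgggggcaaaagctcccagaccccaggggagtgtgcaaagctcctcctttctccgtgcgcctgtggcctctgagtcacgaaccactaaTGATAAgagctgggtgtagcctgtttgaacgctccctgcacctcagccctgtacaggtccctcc
Stat2 upstream site (chr10:128237839-128238039): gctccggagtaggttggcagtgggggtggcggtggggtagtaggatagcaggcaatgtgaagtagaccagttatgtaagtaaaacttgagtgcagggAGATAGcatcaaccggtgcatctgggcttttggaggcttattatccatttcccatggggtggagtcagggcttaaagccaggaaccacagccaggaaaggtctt
Rsad2 intron (chr12:26453041-26453241): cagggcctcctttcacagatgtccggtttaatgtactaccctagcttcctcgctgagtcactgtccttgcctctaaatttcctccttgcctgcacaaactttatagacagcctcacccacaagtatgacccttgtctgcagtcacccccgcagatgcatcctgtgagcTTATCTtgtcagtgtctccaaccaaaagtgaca
Mx1 upstream site (chr16:97478715-97478915): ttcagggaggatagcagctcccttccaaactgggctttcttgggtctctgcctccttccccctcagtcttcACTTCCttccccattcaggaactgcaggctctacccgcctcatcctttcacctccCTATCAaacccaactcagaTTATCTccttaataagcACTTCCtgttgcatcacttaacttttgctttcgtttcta
Zbp1 upstream site (chr2:173224205-173224405): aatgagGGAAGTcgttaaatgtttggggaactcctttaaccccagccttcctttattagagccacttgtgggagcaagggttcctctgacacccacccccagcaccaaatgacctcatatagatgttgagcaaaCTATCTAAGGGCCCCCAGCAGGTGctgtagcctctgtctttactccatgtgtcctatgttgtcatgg
Rsad2 downstream site (chr12:26439512-26439712): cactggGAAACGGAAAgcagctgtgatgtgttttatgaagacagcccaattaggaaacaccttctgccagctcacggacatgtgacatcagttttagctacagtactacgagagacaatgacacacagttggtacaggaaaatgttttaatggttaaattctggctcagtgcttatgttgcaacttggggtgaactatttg

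The windows at Ifngr2, Stat2 and within Rsad2 each held 1 GATA word, and that of Mx1 held 2 GATA words and 2 ETS words. The Zbp1 window held the only E-box with a GATA word among these 6 windows, and the downstream Rsad2 window the only interferon-stimulated response element. A match of letters is a description of the sequence and not evidence that a factor was bound.

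The deleted enhancer was examined first. Over the region chr6:88116294-88117707, 76.9 kb upstream of Gata2, the 4 hi-77+/+ libraries had peaks with a -log10 p of 47.9 to 64.1. Weak peaks were also listed in 10 of 12 hi-77-/- libraries, with a -log10 p of at most 15, and that of replicate 4 was within the 49000 strongest peaks in each of the 3 hi-77-/- groups. The deposited lists held 50195 to 112267 peaks, so the 49000 most significant of each library were compared, and the number of reads behind them is unknown. Promoters of 6 of 7 progenitor markers, among them Ptprc, Kit and Cd34, had a peak in all 16 libraries, whereas Lmo2 had none. The 4 hepatocyte and 3 T cell markers had no promoter peak in any library, and among late erythroid markers Hba-a1 had a promoter peak in 2 libraries. The strength of a peak is given as a rank score, which is 1 for the most significant peak of a library, approaches 0 for the weakest of the 49000, and is 0 where there was no peak. It orders sites within a library and is not an amount of accessible DNA.

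The total number of peaks near interferon genes differed little between the groups, while the numbers of distal and promoter sites with a peak did not overlap between some groups. Per library, the 49000 strongest peaks included 245 ± 7.16 (SD, n = 4) peaks within 50 kb of these genes in hi-77+/+ empty, 256.2 ± 3.10 in hi-77-/- empty, 252.2 ± 10.2 with GATA2 and 250.5 ± 3.87 with 9aa-Ins. The lowest and highest libraries were 238 and 255 in hi-77+/+ empty, 252 and 259 in hi-77-/- empty, 244 and 266 with GATA2, and 246 and 255 with 9aa-Ins. All 4 ranges overlapped. Distal sites with a peak numbered 168 to 185 in hi-77+/+ empty and 190 to 192 in hi-77-/- empty, without overlap. They numbered 180 to 190 with GATA2 and at least 191 in every 9aa-Ins library, also without overlap. Promoter sites with a peak numbered 32 to 35, 33 to 35, 30 to 32 and 35 to 38 in the same order, so that GATA2 lay below both other hi-77-/- groups. Matching numbers over all distal and promoter regions, or with other peak sets, are not given here. These differences are therefore not shown to be particular to interferon genes. Of the 411 sites, 118 (28.7%) had a peak in all 16 libraries, beside 23.5% of all regions. The share was 44% of the 50 promoter sites, below the 65.7% of all regions at protein-coding promoters, and 26.6% of the 361 distal sites, above the 16.1% of all regions elsewhere. A further 83 sites (20.2%) had a peak in a single library, beside 21.1% of all regions. Of the 361 sites farther than 1 kb from the genes, 41.3% had one of these genes as their nearest protein-coding 5′ end, and 18% lay within 1 kb of the 5′ end of another gene. Distance to an interferon gene therefore does not assign a site to it.

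Most promoters of receptors and transcription factors were open in every library, and those of most effectors were not. A promoter peak was present in all 16 libraries for 21 genes, which included all 4 receptor subunits, 6 of 7 transcription factors, the sensor Ifih1, 8 of 27 effectors and the regulators Usp18 and Trim25. This is 47.7% of the 44 genes, beside 44.6% of all protein-coding genes. It was present in 1 to 15 libraries for 17 genes and in none for Ifit3, Isg15, Oas1a, Oas2, Ifi44 and Ifitm3, all of them effectors (13.6%, beside 44% of all protein-coding genes). Isg15 is a ubiquitin-like modifier of proteins, Oas1a and Oas2 belong to the oligoadenylate synthetase family that activates RNA decay, and Ifitm3 hinders the entry of viruses. The number of these genes with a promoter peak was 29.0 ± 1.15 (n = 4) per library in hi-77+/+ empty, 30.25 ± 0.957 in hi-77-/- empty, 27.25 ± 0.5 with GATA2 and 31.25 ± 0.957 with 9aa-Ins. The GATA2 libraries held 27 to 28 and did not overlap the 29 to 31 of hi-77-/- empty or the 30 to 32 of 9aa-Ins. The number of all protein-coding genes with a promoter peak per library is not given here. Whether this difference is particular to interferon genes was not tested.

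Promoter sequences of an absent, a rare and a constant promoter peak are shown for comparison, because the same element was present in all of them. Each gives the 250 bases before the gene's start from RefSeq (GRCm38.p6) on the strand of the gene, with capitals at the interferon-stimulated response element. Isg15 had a promoter peak in 0 of 16 libraries, Rsad2 in 1 and Bst2 in 16.
Isg15 promoter (chr4:156200819-156201068, minus strand): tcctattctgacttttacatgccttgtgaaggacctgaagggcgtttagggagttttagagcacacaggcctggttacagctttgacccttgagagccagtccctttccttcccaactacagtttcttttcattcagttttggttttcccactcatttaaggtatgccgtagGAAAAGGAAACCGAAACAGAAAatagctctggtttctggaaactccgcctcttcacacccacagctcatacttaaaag
Rsad2 promoter (chr12:26456453-26456702, minus strand): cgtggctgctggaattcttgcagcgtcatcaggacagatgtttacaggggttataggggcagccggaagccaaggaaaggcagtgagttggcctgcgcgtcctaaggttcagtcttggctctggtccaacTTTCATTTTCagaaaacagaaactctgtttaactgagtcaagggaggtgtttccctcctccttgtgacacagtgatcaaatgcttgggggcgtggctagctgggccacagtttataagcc
Bst2 promoter (chr8:71537473-71537722, minus strand): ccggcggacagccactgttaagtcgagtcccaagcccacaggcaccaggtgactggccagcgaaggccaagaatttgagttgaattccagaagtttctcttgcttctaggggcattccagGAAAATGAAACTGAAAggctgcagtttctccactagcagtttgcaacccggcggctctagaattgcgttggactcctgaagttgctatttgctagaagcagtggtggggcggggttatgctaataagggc

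RefSeq promoter windows of 300 bases were matched for 38 of the 44 genes, and 18 of these (47.4%) held the element, beside 3.44% of 32851 promoter windows of all genes. It was found in 7 of 20 genes whose promoter peak was present in 16 libraries, in 7 of 13 with a promoter peak in 1 to 15 libraries and in 4 of 5 with none. Within such windows around the summits, 10 of 50 promoter sites (20%) and 9 of 361 distal sites (2.49%) held it, beside 2.11% of all regions. The gamma-activated site was found in 14% of promoter sites, 5.26% of distal sites and 4.79% of all regions. GATA words were found in 16% of promoter sites, 23.8% of distal sites and 26.4% of all regions, and ETS words in 30.0%, 31.0% and 27.9%.

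**Figure D1:**
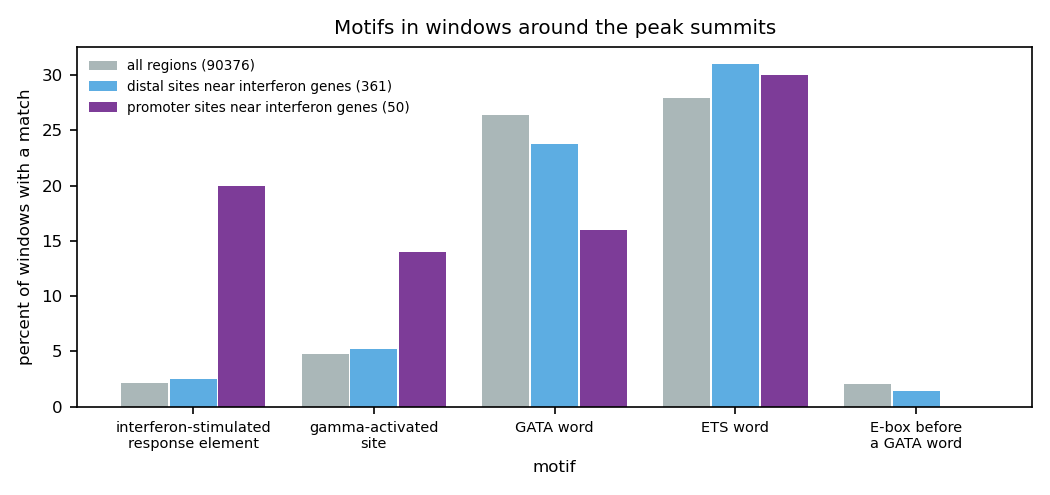
Percent of windows around peak summits (100 bases to either side) that hold a match to each of 5 motifs, for all 90376 regions, the 361 distal sites and the 50 promoter sites near interferon genes. The interferon-stimulated response element was in 20% of the promoter sites and in 2.49% of the distal sites, beside 2.11% of all regions.

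The first comparison, hi-77-/- empty against hi-77+/+ empty, asked what changed with loss of the enhancer. A site was called opened when all 4 libraries of one group had a peak and none of the other did, and closed in the reverse case. The methods name a fixed background in peak calling for the hi-77-/- groups and not for hi-77+/+ empty, so in this comparison the peak-calling setting and the genotype cannot be told apart either. With the deletion 12 sites (2.92%) opened near 13 genes and 4 (0.973%) closed near 4 genes, beside 3.59% and 2.10% of all regions. On the rank score, tested with limma in the 268 sites that had a peak in at least 4 libraries, 56 (20.9%) were higher and 51 (19%) lower in hi-77-/- empty at an adjusted p under 0.05, beside 21.3% and 19% of all 57053 regions tested. The shares near interferon genes were thus close to the background or below it. Without replicate 4 of hi-77+/+ empty the closed sites numbered 8. Leaving out a library eases the call by presence, so such counts of called sites can stay or rise but not fall.

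In the same hi-77-/- background, GATA2 opened 2 sites (0.487%) and closed 7 (1.70%), beside 1.72% and 2.26% of all regions. Rank scores were higher at 17 sites (6.34%) and lower at 35 (13.1%), beside 8.58% and 12.5%. The opened sites numbered 5 without replicate 4 of hi-77-/- empty and 4 without replicate 3 of GATA2, and the closed sites 11 without replicate 2 of GATA2. 9aa-Ins opened 3 sites (0.730%) and closed 1 (0.243%), beside 1.39% and 0.159%, with higher rank scores at 14 sites (5.22%) and lower scores at 7 (2.61%), beside 5.27% and 1.79%. The sites opened by 9aa-Ins numbered 8 without replicate 4 of hi-77-/- empty, 6 without replicate 1 of 9aa-Ins and 5 without its replicate 3, and the closed ones numbered 2 without replicate 1 or replicate 4 of hi-77-/- empty. Both comparisons share the hi-77-/- empty libraries.

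The direct comparison of 9aa-Ins with GATA2 called 11 sites (2.68%) open with 9aa-Ins alone of the 2 and 3 (0.730%) open with GATA2, beside 2.96% and 1.46% of all regions. Rank scores were higher with 9aa-Ins at 43 sites (16%) and lower at 19 (7.09%), beside 16% and 8.30%. Without replicate 3 of GATA2 the sites open with GATA2 numbered 6, and without replicate 3 of 9aa-Ins 40 scores in all passed. For 9aa-Ins against hi-77-/- empty 12 scores passed without its replicate 3 or 4. A site where GATA2 and 9aa-Ins differ may be open in hi-77-/- empty or closed in it, and values of all 4 groups are therefore given for the main sites.

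Replicate 4 of the 3 hi-77-/- groups, which had the peaks over the deleted enhancer, was also left out of each count, an alternative chosen after seeing the data. A call by presence then needs 3 libraries of a hi-77-/- group in place of 4, which by itself allows more sites. With the deletion 12 sites opened, 4 closed and 95 scores passed limma. GATA2 opened 6 and closed 9, with 34 scores passing, and 9aa-Ins opened 9 and closed 2, with 6 passing. Against GATA2, 12 sites were open with 9aa-Ins and 5 with GATA2, and 37 scores passed. Among the sites described below, the fall with GATA2 at Irf1 (26.9 kb downstream), Stat2 (39.3 kb upstream) and Ddx58 and the difference between 9aa-Ins and GATA2 at that Stat2 site then missed the limma threshold, at -0.278, -0.249, -0.225 and 0.243.

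**Figure D2:**
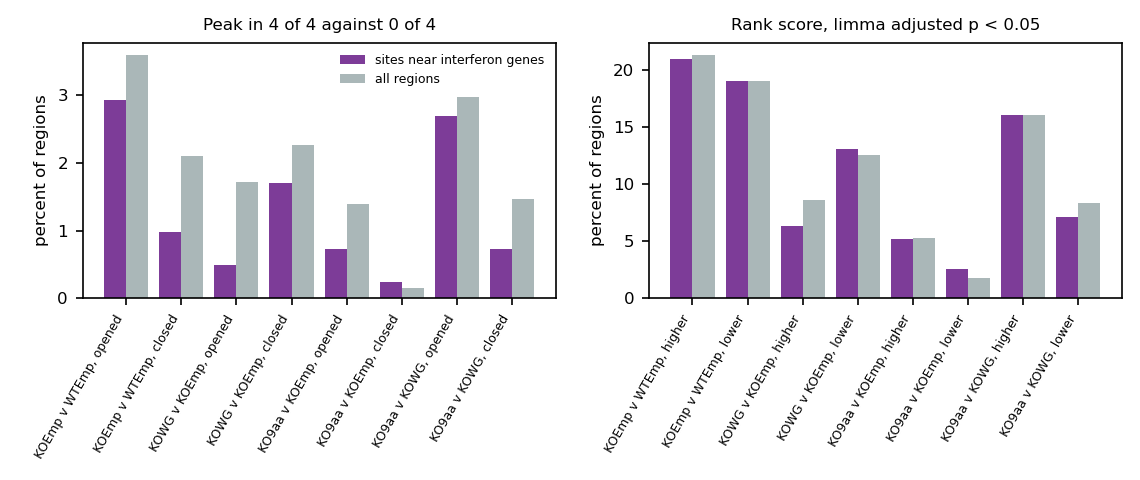
Percent of the sites near interferon genes (purple) and of all regions (grey) called in each comparison and direction. The left panel counts sites with a peak in 4 of 4 libraries of a group and 0 of 4 of the other, and the right panel those passing limma on the rank score. With the deletion 2.92% of the sites near interferon genes opened beside 3.59% of all regions, and 20.9% beside 21.3% had higher rank scores.

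Other genes of the pathway were counted in the same way. A list of 48 further interferon genes, of which 47 were found, had 430 sites that were not near the 44 genes. With the deletion 16 of these (3.72%) opened and 7 (1.63%) closed, and 77 of 283 tested (27.2%) were higher and 50 (17.7%) lower by limma, beside 21.3% and 19% of all regions. GATA2 opened 7 (1.63%) and closed 8 (1.86%), with 19 (6.71%) higher and 47 (16.6%) lower scores, beside 8.58% and 12.5%. 9aa-Ins opened 5 (1.16%) and closed 0, with 8 (2.83%) higher and 4 (1.41%) lower scores, beside 5.27% and 1.79%. Against GATA2, 8 (1.86%) were open with 9aa-Ins alone and 6 (1.40%) with GATA2 alone, and 51 scores (18%) were higher and 22 (7.77%) lower with 9aa-Ins, beside 16% and 8.30%.

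Over the 4 comparisons 28 of the 411 sites were called at least once. The share of all regions called at least once is not given here, so this count is not a result particular to interferon genes. All of the 28 but the Oasl2 site lay outside the promoters. The calls by presence depended on the peak set: of 40 calls at the 26 sites described by rule, 17 held among all deposited peaks, 7 among the strongest 50% of the peaks compared, 37 among peaks narrower than 1 kb and 27 when a peak had to cover 50% of the region. Those that held in all 4 cases numbered 4. The rank score is 0 without a peak, so limma at a site called by presence uses the values that selected it. Its p-values at called sites are therefore not independent of the call and add no separate support. Sites with a peak in 1 group alone entered the fit only through that group. In the windows of the 28 sites a GATA word was present in 35.7%, an ETS word in 39.3% and the interferon-stimulated response element in 1 of 28 (3.57%). The shares of all regions were 26.4%, 27.9% and 2.11%. Of the 12 sites that opened with the deletion, 4 had a peak in 4 of 4 GATA2 libraries and 4 in 0 of 4. In 9aa-Ins, 8 of the 12 had a peak in 4 of 4 libraries and 1 in none. Of the 4 that closed, 1 had a peak in all GATA2 libraries and none had a peak in any 9aa-Ins library. These sites were selected on the hi-77-/- empty libraries, and the same shares over all regions called with the deletion are not given here. The counts are therefore not a result particular to interferon genes.

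**Figure D3:**
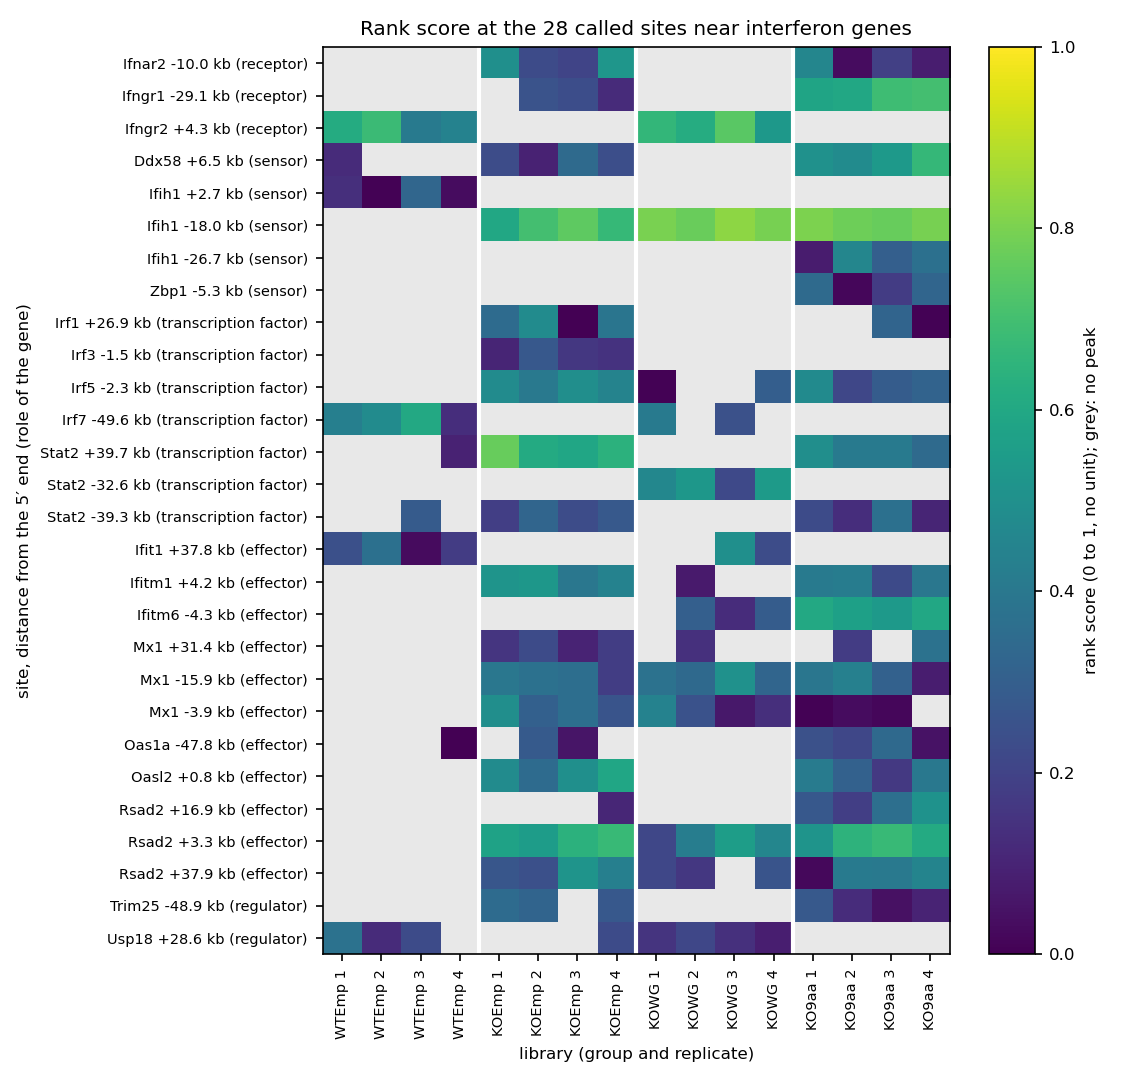
Rank score (color, 0 to 1) of the 28 called sites in rows, ordered by the role of the gene, in the 16 libraries in columns. Grey marks a library with no peak among its 49000 strongest. The Ifngr2 row is filled in the hi-77+/+ empty (WTEmp) and GATA2 (KOWG) libraries and empty in the hi-77-/- empty (KOEmp) and 9aa-Ins (KO9aa) libraries, and the row 18 kb upstream of Ifih1 is filled in all 12 hi-77-/- libraries.

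Among the receptors, Ifngr2 had a site that closed with the deletion and was open again with GATA2. Ifngr2 encodes the signaling subunit of the receptor for interferon gamma. The site, chr16:91551150-91551584, lies in an intron of Ifngr2, 4.3 kb from its 5′ end. Its rank scores were 0.617, 0.680, 0.407 and 0.443 in hi-77+/+ empty and 0.661, 0.621, 0.745 and 0.534 with GATA2, and no peak was present in hi-77-/- empty or with 9aa-Ins. The score fell by 0.537 with the deletion (SE 0.0732, limma adjusted p = 1.07e-05), and GATA2 raised it by 0.640 (SE 0.0732, adjusted p = 2.54e-06). The difference between 9aa-Ins and GATA2 was -0.640 (adjusted p = 3.31e-06). When all deposited peaks were counted, 3 of 4 9aa-Ins libraries also had a peak there, and still none of the hi-77-/- empty libraries did. The number of peaks within 50 kb of Ifngr2 was 14, 16, 13 and 14 in hi-77+/+ empty and 12, 11, 11 and 9 in hi-77-/- empty, without overlap. With GATA2 it was 12, 6, 9 and 11, so the gain at this intron was not matched by a gain in the number of peaks.

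Ifngr1, the subunit that binds interferon gamma, had a site at chr10:19562573-19563091, 29.1 kb upstream, with scores of 0.583, 0.6, 0.691 and 0.703 in the 9aa-Ins libraries. GATA2 and hi-77+/+ empty had no peak in any library, and hi-77-/- empty had scores of 0, 0.257, 0.237 and 0.123. 9aa-Ins exceeded GATA2 by 0.644 (SE 0.0669, limma adjusted p = 1.28e-06) and hi-77-/- empty by 0.490 (adjusted p = 9.18e-05). Peaks within 50 kb of Ifngr1 numbered 3, 4, 4 and 5 in hi-77+/+ empty and 5, 6, 5 and 6 in hi-77-/- empty. They numbered 4, 3, 4 and 3 with GATA2 and 5, 6, 8 and 7 with 9aa-Ins. GATA2 lay below both other hi-77-/- groups without overlap, and overlapped hi-77+/+ empty. For Ifnar2, a subunit of the receptor for interferon alpha and beta, the intergenic site chr16:91362499-91363111, 10.0 kb upstream, was present in all 4 hi-77-/- empty and all 4 9aa-Ins libraries and absent from the other 8. Its score rose by 0.365 with the deletion (limma adjusted p = 0.00255) and fell by 0.365 with GATA2 (adjusted p = 0.0045). The difference of 0.190 between 9aa-Ins and GATA2 did not pass the test (adjusted p = 0.13). Ifnar2 had 10, 10, 9 and 9 peaks within 50 kb in hi-77+/+ empty and 12, 12, 12 and 11 in hi-77-/- empty. Ifnar1, its partner, had no called site.

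Among the sensors, Ifih1 (MDA5), a helicase that detects long double-stranded RNA, had the strongest site of those that opened. The site, chr2:62663931-62664675, lies 18 kb upstream of Ifih1, but its summit is 0.044 kb from the 5′ end of Gca, a calcium-binding protein of granulocytes, and thus at that promoter. It had no peak in the 4 hi-77+/+ libraries and scores of 0.598, 0.703, 0.753 and 0.670 in hi-77-/- empty. The scores were 0.799, 0.771, 0.830 and 0.795 with GATA2 and 0.802, 0.781, 0.767 and 0.793 with 9aa-Ins. The deletion raised it by 0.681 (SE 0.0452, limma adjusted p = 2.13e-09), and neither GATA2 (0.118, adjusted p = 0.0716) nor 9aa-Ins (0.105, adjusted p = 0.213) moved it past the threshold. It was absent from hi-77+/+ empty and present in all hi-77-/- libraries also among all deposited peaks and among the top 50% of those compared.

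A second site, chr2:62672881-62673066 in an intron of Gca and 26.7 kb upstream of Ifih1, had scores of 0.0762, 0.459, 0.303 and 0.369 in the 9aa-Ins libraries and no peak in the other 12. 9aa-Ins exceeded hi-77-/- empty by 0.302 (SE 0.0609, limma adjusted p = 0.00326). The 9aa-Ins peaks that selected this site also brought it into the fit, so this p-value is not separate support. In an intron of Ifih1 itself, 2.7 kb from its start, weak peaks with scores of 0.136, 0.00433, 0.331 and 0.0347 were present in hi-77+/+ empty and in no other library. The difference did not pass limma (-0.126, adjusted p = 0.0614), but did when regions were ranked within each chromosome, at -0.168. This site too entered the fit only through the peaks that selected it. In the full deposited lists 3 of 4 9aa-Ins libraries also had a peak there. Peaks near Ifih1 numbered 3 in every hi-77-/- empty library and 6, 4, 4 and 5 with 9aa-Ins. They numbered 3, 5, 4 and 4 in hi-77+/+ empty, which overlapped 9aa-Ins, and 3, 4, 3 and 2 with GATA2.

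Zbp1, a sensor of left-handed nucleic acids that can trigger cell death, had a 9aa-Ins site at chr2:173224096-173224417, 5.3 kb upstream, with scores of 0.347, 0.0172, 0.176 and 0.325. No other group had a peak there among the 49000 strongest, and 9aa-Ins exceeded hi-77-/- empty by 0.217 (SE 0.0561, limma adjusted p = 0.0205), which missed the threshold without replicate 3 of hi-77-/- empty. The 9aa-Ins peaks that selected this site also brought it into the fit, so this p-value is not separate support. Among all deposited peaks the 4 hi-77-/- empty libraries also had a peak there, which ended that call, and none of the hi-77+/+ empty or GATA2 libraries did. Ddx58 (RIG-I), which detects RNA with a triphosphate end, had a site in its intron at chr4:40233156-40233555, 6.5 kb from the 5′ end. Its scores were 0.506, 0.483, 0.541 and 0.667 with 9aa-Ins, 0.232, 0.0973, 0.345 and 0.242 in hi-77-/- empty, and 0.122, 0, 0 and 0 in hi-77+/+ empty, and no GATA2 library had a peak. GATA2 fell by 0.229 below hi-77-/- empty (limma adjusted p = 0.0204) and 9aa-Ins rose by 0.320 above it (adjusted p = 0.00511). When all deposited peaks were counted, 2 GATA2 and 3 hi-77+/+ empty libraries had a peak there, and the call of closure by GATA2 held in 0 of the 4 other peak sets. The GATA2 difference missed the threshold without replicate 3 of hi-77-/- empty, at -0.190.

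Among the transcription factors, Stat2 had 3 called sites, and none of them was at its promoter. STAT2 acts with IRF9 in binding the interferon-stimulated response element. The site chr10:128237800-128238064, 32.6 kb upstream in an intron of Timeless, had scores of 0.463, 0.529, 0.221 and 0.545 with GATA2 and no peak in the other 12 libraries. GATA2 exceeded hi-77-/- empty by 0.439 (SE 0.0630, limma adjusted p = 3.03e-05) and 9aa-Ins by the same amount (adjusted p = 3.34e-05). The GATA2 peaks that selected this site also brought it into the fit, so these p-values are not separate support. Among all deposited peaks 3 hi-77-/- empty, 1 hi-77+/+ empty and 1 9aa-Ins library had a peak, so the call is one of strength and not of absence.

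A site in a coding exon of Pan2, chr10:128310056-128310516 and 39.7 kb downstream of the Stat2 start, moved the other way. It had scores of 0.768, 0.610, 0.591 and 0.643 in hi-77-/- empty and 0.494, 0.411, 0.410 and 0.346 with 9aa-Ins. The GATA2 libraries had no peak, nor did hi-77+/+ empty except for 0.0973 in replicate 4. GATA2 lowered the score, which fell by 0.653 (SE 0.0660, limma adjusted p = 6.78e-07), and no GATA2 library had a peak there among all deposited peaks either. In those full lists 3 of 4 hi-77+/+ empty libraries did have a peak at this site. 9aa-Ins lowered the score less, by a difference of -0.238 (adjusted p = 0.0312), and differed from GATA2 by 0.415 (adjusted p = 9.36e-05). The weaker site 39.3 kb upstream, at chr10:128231116-128231487, had peaks in all hi-77-/- empty and 9aa-Ins libraries and in no GATA2 library. Its difference between 9aa-Ins and GATA2 (0.208, limma adjusted p = 0.0472) missed the threshold when any GATA2 library was left out, when replicate 1 or 3 of 9aa-Ins was left out, and when regions were ranked within each chromosome. In the full deposited lists 3 hi-77+/+ empty libraries and 1 GATA2 library had a peak there.

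The interferon regulatory factors showed sites in both directions. IRF1 drives basal and induced antiviral genes, and its intergenic promoter site 1.0 kb upstream (chr11:53768739-53769357) is described although it was singled out after its values were seen. Its scores were 0.0576, 0, 0 and 0 in hi-77+/+ empty, 0.508, 0.440, 0.379 and 0.472 in hi-77-/- empty, 0, 0.0313, 0 and 0 with GATA2, and 0.493, 0.337, 0.369 and 0.511 with 9aa-Ins. It rose by 0.435 with the deletion (SE 0.0644, limma adjusted p = 2.61e-05) and fell by 0.442 with GATA2 (adjusted p = 3.56e-05). The difference of 9aa-Ins was -0.0224 from hi-77-/- empty (SE 0.0644, adjusted p = 0.978) and 0.420 from GATA2 (adjusted p = 6.64e-05). The main Irf1 promoter peak, 0.2 kb from the 5′ end, had mean scores of 0.872 to 0.942 in the 4 groups. A further Irf1 site, 26.9 kb downstream at chr11:53796757-53797140, had scores of 0.350, 0.484, 0.000408 and 0.390 in hi-77-/- empty, none in hi-77+/+ empty or with GATA2, and 0, 0, 0.324 and 0.00543 with 9aa-Ins. Its change with GATA2 (-0.306, limma adjusted p = 0.0145) missed the threshold without replicate 2 of hi-77-/- empty, at -0.247. In the full deposited lists 2 hi-77+/+ empty libraries and 4 of 4 9aa-Ins libraries also had a peak there, and no GATA2 library did.

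IRF7, which amplifies the production of interferon, showed the opposite order at its promoter, a peak region of 2167 bp at chr7:141264700-141266866 that was also singled out after its values were seen. The scores were 0.727, 0.770, 0.750 and 0.815 in hi-77+/+ empty, 0.368, 0.531, 0.491 and 0.444 in hi-77-/- empty, 0.723, 0.766, 0.681 and 0.636 with GATA2, and 0.620, 0.419, 0.510 and 0.463 with 9aa-Ins. The score fell by 0.307 with the deletion (SE 0.0510, limma adjusted p = 9.36e-05) and rose by 0.243 with GATA2 (adjusted p = 0.00146). The difference of 9aa-Ins was 0.0445 from hi-77-/- empty (adjusted p = 0.797) and -0.198 from GATA2 (adjusted p = 0.00666). A distal Irf7 site in an intron of Deaf1, chr7:141316004-141316246, 49.6 kb upstream, closed with the deletion from scores of 0.432, 0.483, 0.605 and 0.132. Of the GATA2 libraries, replicates 1 and 3 had a peak there, with 0.414 and 0.248, and no 9aa-Ins library did. In the full deposited lists 2 9aa-Ins libraries and 1 hi-77-/- empty library also had a peak at this distal site.

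IRF5, which acts downstream of Toll-like receptors in myeloid cells, gained an intergenic site 2.3 kb upstream (chr6:29524016-29524602) with scores of 0.481, 0.406, 0.496 and 0.449 in hi-77-/- empty and no peak in hi-77+/+ empty. The scores were 0.00476, 0, 0 and 0.299 with GATA2 and 0.477, 0.212, 0.291 and 0.317 with 9aa-Ins. The score rose by 0.458 with the deletion (limma adjusted p = 0.000103) and fell by 0.382 with GATA2 (adjusted p = 0.00099), and the difference of 9aa-Ins from hi-77-/- empty was -0.134 (adjusted p = 0.415). Among all deposited peaks 4 of 4 hi-77+/+ libraries had a peak at this site, which ended the call by presence. IRF3, the factor activated directly by RNA sensing, had a site 1.5 kb upstream in an intron of Bcl2l12, chr7:44995978-44996392, with scores of 0.105, 0.276, 0.163 and 0.145 in hi-77-/- empty and no peak in the other 12 libraries. It fell by 0.172 with GATA2 (SE 0.0405, limma adjusted p = 0.00367) and by 0.172 with 9aa-Ins (adjusted p = 0.0101), and was the only site closed by 9aa-Ins. The hi-77-/- empty peaks that selected this site also brought it into the fit, so these p-values are not separate support. In the full deposited lists 2 9aa-Ins libraries had a peak at this Irf3 site, which ended that call. Irf2 and Irf9 had no called site.

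Among the effectors, Mx1 and Rsad2 gained the most called sites with the deletion. Mx1 is a dynamin-like GTPase that traps viral nucleoproteins. Peaks within 50 kb of Mx1 numbered 2, 1, 1 and 1 in hi-77+/+ empty, 6, 6, 8 and 6 in hi-77-/- empty, 5, 7, 6 and 6 with GATA2, and 6, 9, 5 and 3 with 9aa-Ins. Every hi-77-/- library exceeded every hi-77+/+ library. The 3 Mx1 sites called were 15.9 kb upstream in an intron of Fam3b (chr16:97478558-97479069), 3.9 kb upstream (chr16:97466665-97466871) and 31.4 kb downstream in an intron of Bace2 (chr16:97431366-97431611). The deletion raised their scores by 0.328 (limma adjusted p = 0.00302), 0.356 (adjusted p = 0.000883) and 0.166 (adjusted p = 0.0646). The site 15.9 kb upstream had a peak in all 12 hi-77-/- libraries. In the full deposited lists 3 of 4 hi-77+/+ libraries had a peak 3.9 kb upstream and none had a peak 15.9 kb upstream. The site 3.9 kb upstream was lower with 9aa-Ins than in hi-77-/- empty by a difference of -0.342 (adjusted p = 0.0063). The promoter of the neighbouring Mx2 (chr16:97534776-97536538) had scores of 0.152, 0.0281, 0 and 0.189 in hi-77+/+ empty and 0.674, 0.721, 0.770 and 0.687 in hi-77-/- empty, a difference of 0.621 (SE 0.0625, adjusted p = 3.52e-07). Its scores stayed between 0.445 and 0.722 with GATA2 and 9aa-Ins.

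Rsad2 encodes viperin, an enzyme that makes a chain-terminating nucleotide. Its intronic site 3.3 kb from the start, chr12:26452870-26453448, had no peak in hi-77+/+ empty and scores of 0.577, 0.553, 0.642 and 0.675 in hi-77-/- empty, 0.214, 0.424, 0.556 and 0.458 with GATA2, and 0.516, 0.645, 0.675 and 0.612 with 9aa-Ins. The deletion raised it by 0.612 (SE 0.0722, limma adjusted p = 2.13e-06), and the GATA2 difference was -0.199 (adjusted p = 0.0568). The site 37.9 kb downstream, chr12:26418388-26418640, rose by 0.366 with the deletion (adjusted p = 0.00385). The intergenic site 3.8 kb upstream, chr12:26459985-26460609, whose window holds the interferon-stimulated response element, had a peak in 1 hi-77+/+ library and in all 12 hi-77-/- libraries, and rose by 0.769 (SE 0.0557, adjusted p = 9.32e-09). It was not called by presence, and is named after its values were seen. With 9aa-Ins the site 16.9 kb downstream, chr12:26439341-26439801, which also holds the element, had scores of 0.276, 0.187, 0.366 and 0.509, beside 0.108 in replicate 4 of hi-77-/- empty and no peak in the other 11 libraries, and exceeded GATA2 by 0.335 (adjusted p = 0.000299). Peaks near Rsad2 numbered 2, 2, 1 and 4 in hi-77+/+ empty and 5, 7, 5 and 6 in hi-77-/- empty.

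Oasl2, an oligoadenylate synthetase-like protein, had the only promoter site that was called. It covers a coding exon of Oasl2, chr5:114897571-114897884, 0.8 kb from the 5′ end, and its scores were 0.482, 0.351, 0.497 and 0.591 in hi-77-/- empty and 0.415, 0.312, 0.166 and 0.4 with 9aa-Ins. No peak was present in hi-77+/+ empty or with GATA2. The score rose by 0.480 with the deletion (SE 0.0697, limma adjusted p = 2.13e-05) and fell by 0.480 with GATA2 (adjusted p = 3.44e-05). The difference of 9aa-Ins was -0.157 from hi-77-/- empty (adjusted p = 0.233) and 0.323 from GATA2 (adjusted p = 0.00162). Among all deposited peaks 1 hi-77+/+ and 2 GATA2 libraries had a peak there.

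The Ifitm genes, whose membrane proteins hinder viral fusion, are clustered on chromosome 7 and share their sites, so they are not independent. The intergenic site 4.2 kb downstream of the Ifitm1 start, chr7:140971094-140971662, lies within 50 kb of Ifitm1, Ifitm2, Ifitm3 and Ifitm6. It had scores of 0.518, 0.531, 0.395 and 0.444 in hi-77-/- empty and no peak in hi-77+/+ empty, and fell by 0.454 with GATA2 (limma adjusted p = 3.1e-05). In the full deposited lists 3 of 4 hi-77+/+ libraries had a peak there, which ended the call by presence. A second intergenic site, 4.3 kb upstream of Ifitm6 at chr7:141021928-141022506, had scores of 0.604, 0.567, 0.536 and 0.601 with 9aa-Ins, 0, 0.302, 0.128 and 0.290 with GATA2, and no peak with the empty vector in either genotype. 9aa-Ins exceeded hi-77-/- empty by 0.577 (SE 0.0686, adjusted p = 2.64e-05) and GATA2 by 0.397 (adjusted p = 0.000209). Among all deposited peaks 2 libraries of each empty group had one. Peaks near Ifitm6 numbered 14, 14, 13 and 15 in hi-77+/+ empty and 18, 19, 18 and 19 in hi-77-/- empty.

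Other effectors lost peaks. Oas3 had 5, 5, 5 and 4 peaks within 50 kb in hi-77+/+ empty and 2 in each hi-77-/- empty library, with 3, 2, 3 and 2 with GATA2 and 3, 3, 3 and 4 with 9aa-Ins. Gbp5, a guanylate-binding protein of the interferon gamma response, had 4, 4, 5 and 5 in hi-77+/+ empty and 3, 3, 2 and 3 in hi-77-/- empty. Xaf1, a factor that promotes cell death, had 3 in each hi-77+/+ library and 2, 2, 1 and 2 in hi-77-/- empty. For Ifi35 the number was 12, 13, 12 and 11 in hi-77-/- empty, 16, 14, 16 and 11 with GATA2, and 9, 10, 9 and 9 with 9aa-Ins, so that 9aa-Ins lay below both. Ifit1, which binds foreign RNA ends, had a site in an intron of Slc16a12, chr19:34678569-34678770, 37.8 kb downstream, with scores of 0.244, 0.371, 0.0287 and 0.177 in hi-77+/+ empty, 0, 0, 0.499 and 0.232 with GATA2, and none in the other groups. Its fall of 0.205 with the deletion did not pass limma (adjusted p = 0.0741), but did when regions were ranked within each chromosome, with a difference of -0.233, and without replicate 3 of hi-77+/+ empty, with -0.264. In regions with a peak in all 16 libraries the median rank score of chromosome 19 differed by -0.0209 with the deletion and that of chromosome 8, with Bst2 and Irf2, by -0.0565. That of chromosome 11, with Irf1, Dhx58, Xaf1, Ifi35 and Trim25, differed by 0.0297. The part of these shifts in the values at these genes was not tested.

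Among regulators, Usp18, a protease that removes ISG15 and dampens interferon signaling, had an intergenic site 28.6 kb downstream (chr6:121274434-121274628) with scores of 0.150, 0.211, 0.137 and 0.0858 with GATA2 and none with 9aa-Ins. The difference of -0.146 between 9aa-Ins and GATA2 did not pass limma (adjusted p = 0.162). In the full deposited lists 2 9aa-Ins libraries had a peak at this site. Trim25, a ubiquitin ligase that assists RIG-I, had a site 48.9 kb upstream in an intron of Scpep1 (chr11:88950345-88950625) with a peak in 4 of 4 9aa-Ins, 3 of 4 hi-77-/- empty and 0 of 4 GATA2 libraries. Its difference of 0.137 did not pass either (adjusted p = 0.171). Oas1a had a like site 47.8 kb upstream in a coding exon of Rph3a (chr5:120955151-120955576), where 9aa-Ins exceeded GATA2 by 0.213 (adjusted p = 0.0202), a difference that missed the threshold without replicate 3 of 9aa-Ins, at 0.170.

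Counted by gene, the peak numbers of 5 of 44 genes (11.4%) were higher and of 4 (9.09%) lower in every hi-77-/- empty than in every hi-77+/+ empty library, beside 4.57% and 7.55% of all protein-coding genes. The higher ones were Ifitm3, Ifitm6, Rsad2, Ifnar2 and Mx1, and the first 2 share 20 sites. The lower ones were Gbp5, Oas3, Xaf1 and Ifngr2. With GATA2 against hi-77-/- empty none was higher, beside 3.15%, and Oasl2 and Ifngr1 were lower (4.55%), beside 2.70%. With 9aa-Ins against hi-77-/- empty Ifih1 and Oas3 were higher (4.55%), beside 1.69%, and Ifi35 was lower (2.27%), beside 1.31%. Against GATA2, Oas1a and Ifngr1 were higher with 9aa-Ins (4.55%), beside 3.45%, and Ifi35 was lower (2.27%), beside 4.79%. These are counts of 1 to 5 genes. With all deposited peaks the genes without overlap numbered, in both directions together, 10 with the deletion, 1 with GATA2, 7 with 9aa-Ins and 11 in the direct comparison, in place of 9, 2, 3 and 3.

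**Figure D4:**
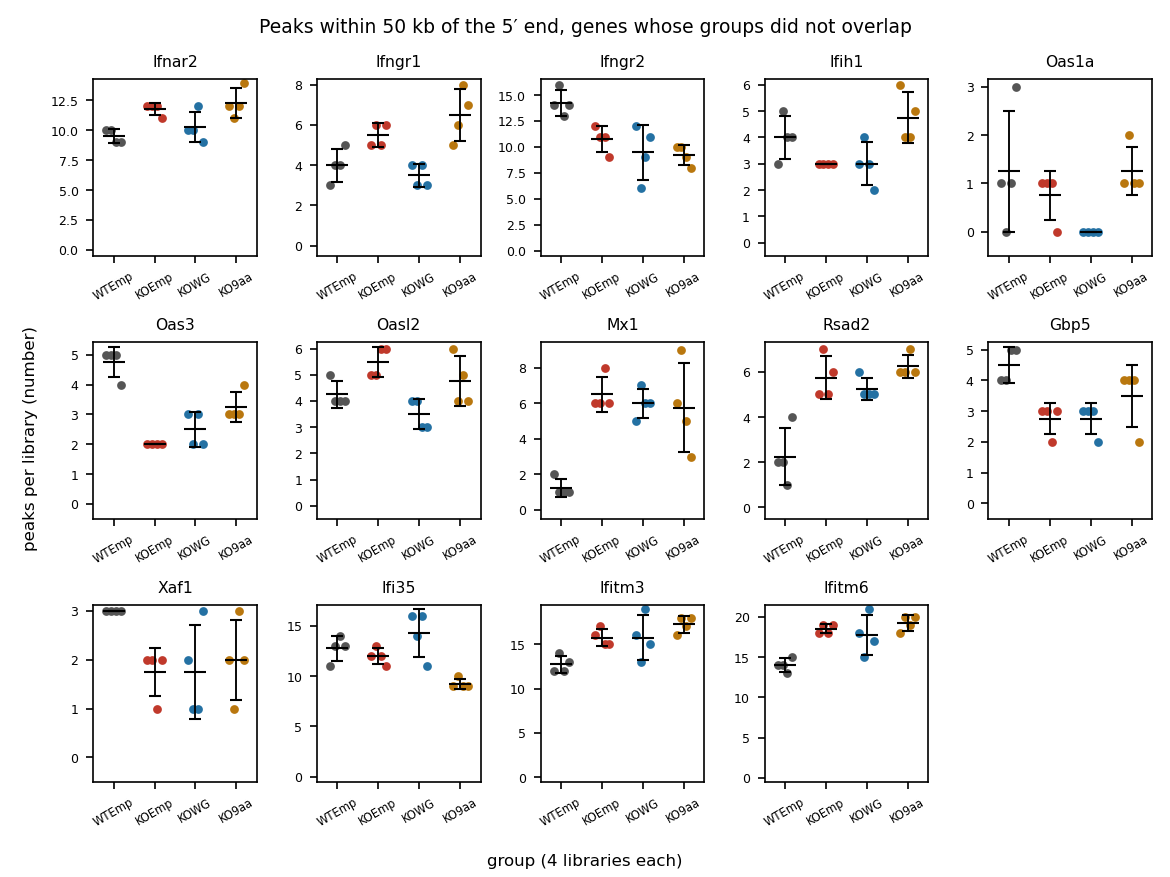
Number of peaks within 50 kb of the 5′ end in each library, for the 14 genes whose groups did not overlap in at least 1 comparison. Points are libraries, horizontal bars the mean and error bars the SD of 4 libraries, and each panel has its own vertical scale. Mx1 had 1 to 2 peaks in hi-77+/+ empty (WTEmp) and 3 to 9 in the hi-77-/- libraries.

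Of the 50 promoter sites 37 had peaks in enough libraries to be tested, and 19 of these passed limma in at least 1 comparison. The matching share of all tested promoter regions is not given here, so the 19 are not shown to be particular to interferon genes. With the deletion 6 were higher, at Oasl2, Irf5, Irf1 (2 sites), Dhx58 and Mx2 (16.2%, beside 15.2% of all tested promoter regions), and 8 were lower (21.6%, beside 18.5%), at Adar, Gbp3, Irf7, Bst2, Stat2, Irf9, Eif2ak2 and Ifit2. With GATA2 2 were higher (5.41%, beside 4.79%), at Oasl1 and Irf7, and 6 lower (16.2%, beside 3.77%), at Gbp7, Oasl2, Usp18, Ifitm1, Irf1 and Dhx58. With 9aa-Ins 1 was higher (2.70%, beside 1.22%), at Ifitm6, and 2 lower (5.41%, beside 0.637%), at Usp18 and Ifit2. Against GATA2 the 9aa-Ins libraries were higher at 6 (16.2%, beside 4.13%), namely Gbp7, Oasl2, Ifitm1, Ifitm6, Irf1 and Dhx58, and lower at 3 (8.11%, beside 4.08%), namely Irf7, Irf9 and Ifit2. The 2 sets of promoters are unlike: 44% of the promoter sites near these genes had a peak in all 16 libraries, beside 65.7% of all promoter regions. The part of this in the shares was not tested, and the shares with other peak sets are not given here. Dhx58 (LGP2), a helicase that tunes the other RNA sensors, had scores of 0.0525, 0, 0 and 0 in hi-77+/+ empty and 0.636, 0.709, 0.557 and 0.675 in hi-77-/- empty at chr11:100704165-100704616, a rise of 0.631 (SE 0.0623, adjusted p = 2.84e-07). GATA2 lowered it, with a difference of -0.216 (adjusted p = 0.0163) and scores of 0.311 to 0.481. Ifit2, which binds foreign RNA like Ifit1, kept a promoter peak in all libraries and fell from 0.928 to 0.990 in hi-77+/+ empty to 0.746 to 0.857 in hi-77-/- empty, a difference of -0.169 (adjusted p = 0.000151). Eif2ak2 (PKR), a kinase that halts translation on viral RNA, differed by -0.218 (adjusted p = 0.000761). Dhx58, Ifit2 and Eif2ak2 were picked from the 19 after their values were seen.

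**Figure D5:**
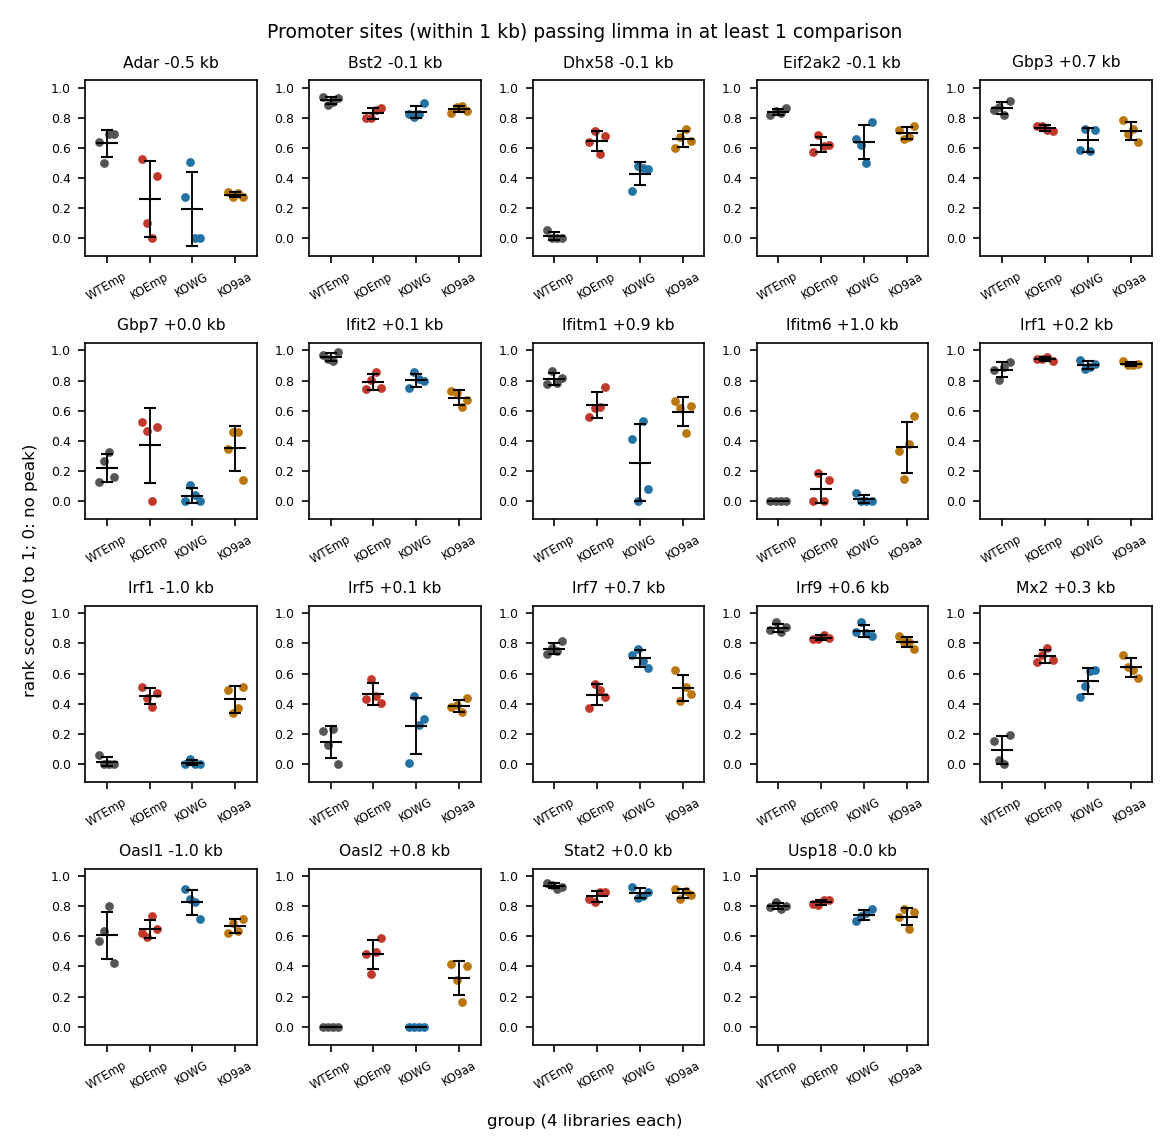
Rank score of the 19 promoter sites that passed limma in at least 1 comparison, by group. Points are libraries, horizontal bars the mean and error bars the SD of 4 libraries, and 0 means no peak. At the Irf1 site 1.0 kb upstream the hi-77-/- empty (KOEmp) and 9aa-Ins (KO9aa) libraries lay between 0.337 and 0.511 and the other groups between 0 and 0.0576, and at Irf7 the order was reversed.

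Sites that hold the interferon-stimulated response element moved in both directions. Of 19 such sites near these genes 13 were tested, and 3 were higher and 2 lower with the deletion, 1 higher and 5 lower with GATA2, and 1 higher and 1 lower with 9aa-Ins. Against GATA2, 4 were higher and 1 lower with 9aa-Ins. Over the genome, 1181 regions with the element were tested, of which 308 (26.1%) were higher and 181 (15.3%) lower with the deletion and 73 (6.18%) higher and 214 (18.1%) lower with GATA2. With 9aa-Ins 63 (5.33%) were higher and 15 (1.27%) lower. Against GATA2, 257 (21.8%) were higher and 80 (6.77%) lower with 9aa-Ins. The shares of all regions were, in the same order, 21.3% and 19%, 8.58% and 12.5%, 5.27% and 1.79%, and 16% and 8.30%.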

How the data were processed

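The authors trimmed reads with Trim Galore 0.4.1, aligned them to mm10 with Bowtie2 2.2.5, removed duplicates with Picard 2.26.0, kept unique reads, shifted read ends to the cut made by the enzyme, and ran MACS2 on every library separately. A fixed genome-wide background was named for the hi-77-/- groups and not for hi-77+/+ empty. Each deposited list holds per peak an integer score, a fold enrichment (a ratio over the background of that library), a -log10 p-value, a -log10 q-value and a summit offset. The deposited -log10 p, with ties broken by the deposited fold enrichment, ranked the peaks, and the deposited score and -log10 q were not used. Depth is unknown, and intervals based on read counts cannot be given.

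The 49000 most significant peaks per library on chromosomes 1 to 19 and X were merged where they overlapped by at least 1 bp. A rank score was 1 - (rank - 1)/49000 for the best peak of a region. Regions with a peak in at least 4 of 16 libraries were fitted with limma 3.58.1 (trend and robust options, R 4.3.3) over all 4 groups, with Benjamini-Hochberg adjustment over 57053 regions. The script was tested on simulated data. A region belonged to a gene when its nearest base lay within 50 kb of the GENCODE M21 5′ end (1 kb for promoters). Printed distances run to the centre of the region, and genomic features were read at the summit. Python 3.11.15 was used for the rest.

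Members and lists were chosen with earlier results of these data known. Sites were named when called by presence in any comparison, up to 10 per direction by median rank score in the group with the peak, with every library given for the first 3 (and for some further sites, picked after their values were seen), and genes when their peak numbers did not overlap. Other items are said to be named after their values were seen. Alternatives were other peak sets, widths, overlaps, filters and rankings, a replicate block and leaving out libraries.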

Additional observations from a re-analysis of the deposited data

Results flagged for a closer look

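In a group of 4 libraries a value was marked when its gap to the nearest other library as a share of the group's range exceeded Dixon's critical value, which chance alone reaches in about 1 of 20 groups. The criterion was applied to 42 groups of rank scores at 26 sites and to the totals per library. Replicate 1 of GATA2 had a promoter peak at 28 of the 44 genes, beside 27 in each of the other 3 GATA2 libraries. At the site 4.2 kb downstream of the Ifitm1 start, replicate 3 of 9aa-Ins had a rank score of 0.226, below 0.395 to 0.419 in the others. At the Mx1 site 15.9 kb upstream, replicate 4 of hi-77-/- empty had 0.182, below 0.362 to 0.397. At the Rsad2 site 37.9 kb downstream, replicate 1 of 9aa-Ins had 0.0217, below 0.406 to 0.452.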

How the results depend on the processing

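Counts moved most with the length of the peak lists, and the cause was not tested. With all deposited peaks, the difference in peaks per library near the 44 genes was -87 with the deletion, -29 with GATA2, 93.5 with 9aa-Ins and 122 for the 9aa-Ins and GATA2 pair, beside 11.2, -4.00, -5.75 and -1.75 with 49000 peaks, so that every sign but that for GATA2 turned. The deletion then closed 19 sites, GATA2 opened 1 and closed 16, 9aa-Ins opened 17 and closed 0 with 39 scores passing limma, and against GATA2 32 were open with 9aa-Ins and 0 with GATA2, with 122 passing. With the strongest 50% of these peaks the deletion difference was -4.25, also reversed, the deletion closed 9, GATA2 opened 5, 7 scores passed for 9aa-Ins, and against GATA2 the numbers were 6, 5 and 33. With peaks narrower than 1 kb the deletion closed 8, 9aa-Ins closed 2, 5 were open with GATA2 against 9aa-Ins, and the differences of 9aa-Ins were -11.5 from hi-77-/- empty and -10.8 from GATA2. When peaks had to cover 50% of a region, 54 scores passed for the deletion and 29 for GATA2, 9aa-Ins opened 14 and closed 0, and 24 were open with 9aa-Ins against GATA2. Without replicate 4 of the 3 hi-77-/- groups, GATA2 opened 6 with 34 scores passing, 9aa-Ins opened 9 and closed 2 with 6 passing, and against GATA2 5 were open with GATA2 and 37 passed. Apart from leaving out single libraries, described below, the other alternatives left the counts of opened, closed and passing sites within 1.5 times. Changes in the difference in peaks that were within the spread between libraries gave 1 for GATA2 (a turned sign), -3 for 9aa-Ins and -4 for the pair with the strongest 50%, and 7.5 for the deletion and -0.75 for GATA2 with narrow peaks. Genes without overlap numbered 0 for 9aa-Ins with the strongest 50%, and 1 for 9aa-Ins and 1 for GATA2 with narrow peaks. Of 40 calls at named sites 23 were lost with all deposited peaks, 33 with the strongest 50%, 13 under 50% cover and 3 with narrow peaks.

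Leaving out 1 library at a time gave 12 to 16 opened and 4 to 8 closed sites with the deletion, 2 to 5 and 8 to 11 with GATA2, 3 to 8 and 1 to 2 with 9aa-Ins, and 11 to 15 and 3 to 6 in the direct comparison. The call by presence is easier to meet with a library left out, so these counts can stay or rise but not fall. Scores passing limma numbered 96 to 104, 42 to 51, 12 to 18 and 40 to 52 in the same order. The differences in peaks per library were 8.92 to 14.6, -8.58 to -1.25, -7.25 to -4.25 and -4.50 to 2.83. The last of these changed sign.

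Correlations of the deviations from group means were -0.0548 to 0.0913 (mean -0.0007) between same-numbered libraries. Between libraries of unlike number they were -0.0591 to 0.0668 (mean 0.0003). No pairing by number was seen on average, but values this small cannot exclude a batch shared by some libraries. With a replicate block 110, 51, 18 and 60 scores passed, beside 107, 52, 21 and 62, and no call at a named site changed. Peak lists show whether a peak was called and not how many reads lay behind it, so a weak peak missing from a list is not shown to be absent.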
